A study of Mus musculus with 2 samples.

Results

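The killer cell lectin-like receptors were taken as every gene symbol of the deposited expression table that starts with Klr, which gave 26 of 22337 symbols. They are 11 *Klra* genes (the Ly49 receptors), 5 *Klrb* genes (NKR-P1), *Klrc1*, *Klrc2* and *Klrc3* (NKG2) with their partner *Klrd1* (CD94), *Klrk1* (NKG2D), *Klre1*, *Klri1* and *Klri2*, and *Klrg1* and *Klrg2*. Hearts of Bm12 mice, a C57BL/6 (B6) strain with an altered I-A molecule, had been transplanted into B6 recipients and were taken at postoperative day (POD) 14. The donors carried *Il33* on both alleles (3 hearts, called IL-33+ here, replicates 1, 2 and 3) or lacked it (3 hearts, called IL-33-, replicates 4, 5 and 6), and every heart met the same I-A mismatch, so no graft without alloantigen was part of the comparison. All 6 hearts entered 1 pooled single-cell library after their cells had been tagged with hashtag antibodies. Between 230 and 1666 cells came from a heart, 4441 in all, in 14 annotated types. The cells were enriched for immune cells on a density gradient, and 375 of them were annotated fibroblasts. No selection of recipient cells is described for this library, so immune cells of the donor heart may be among them.

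These receptors are C-type lectin-like proteins of the surface of NK cells and some T cells, and most of their genes lie side by side in the natural killer gene complex. Inhibitory members carry a motif that recruits phosphatases when they bind MHC class I or a related ligand on the cell they touch. Activating members lack it and signal through adaptors such as DAP12 (*Tyrobp*) or DAP10 (*Hcst*), and each NK cell displays its own mixture of Ly49 receptors. In transplantation they are known as the means by which NK cells read the MHC class I of the graft. Bm12 and B6 share their class I molecules and differ in class II.

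By GENCODE vM21 on GRCm38, the 26 members all lie on chromosome 6. *Klrg2* (38625693 to 38637242) and *Klrg1* (122270596 to 122282882) stand apart from the rest. The NKR-P1 genes start the complex with *Klrb1a* at 128609227, followed by *Klre1*, *Klrd1*, *Klrk1*, *Klrc3*, *Klrc2*, *Klrc1*, *Klri1* and *Klri2*. The Ly49 genes run from *Klra17* (129831154 to 129876672) through *Klra5*, *Klra6*, *Klra4*, *Klra8*, *Klra9*, *Klra7*, *Klra10* and *Klra3* to *Klra1* (130363917 to 130386874). *Klra2* (131219223 to 131247362) lies beyond them. *Klra4* (130043731 to 130067271) and *Klra8* (130115226 to 130129898), which encode the activating receptors Ly49D and Ly49H, are neighbours. The reference paired a promoter window with 23 members, and *Klrd1*, *Klrg1* and *Klri2* had none.

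The upstream sequences of 4 Ly49 genes are shown because their transcripts divided the NK cells from the Tcm cells, as the levels below describe. Each is the 250 bases before a start annotated by RefSeq on GRCm38.p6, read 5′ to 3′ on the minus strand. *Klra4* (chr6:130067272-130067521) and *Klra8* (chr6:130129899-130130148) are printed with capitals at the bases that had no identical partner when both were aligned end to end.
Klra4: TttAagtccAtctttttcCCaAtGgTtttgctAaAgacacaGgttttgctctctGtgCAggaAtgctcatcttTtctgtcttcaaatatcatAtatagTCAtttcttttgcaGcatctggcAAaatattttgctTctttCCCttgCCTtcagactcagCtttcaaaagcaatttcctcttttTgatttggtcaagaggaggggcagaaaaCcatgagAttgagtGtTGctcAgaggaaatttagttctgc
Klra8: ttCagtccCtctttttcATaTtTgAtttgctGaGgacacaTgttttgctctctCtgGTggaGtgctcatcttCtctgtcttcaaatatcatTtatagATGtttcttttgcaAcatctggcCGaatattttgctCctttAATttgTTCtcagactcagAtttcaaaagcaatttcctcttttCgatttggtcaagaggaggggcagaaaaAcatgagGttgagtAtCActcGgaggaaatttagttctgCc
Of the 250 bases, 212 were identical (84.8%). Over all 55 pairs of Ly49 windows the identity ran from 48.0% to 89.6% with a median of 55.2%, and it was highest for *Klra3* with *Klra9*. Over 132 pairs of a Ly49 window with that of another member it ran from 42.8% to 58.0%. The median there was 52.0%, so the median Ly49 pair was little above such pairs.
*Klra6* (chr6:130026955-130027204) and *Klra1* (chr6:130386875-130387124), both higher in Tcm cells, are printed with capitals at the matches named next.
Klra6: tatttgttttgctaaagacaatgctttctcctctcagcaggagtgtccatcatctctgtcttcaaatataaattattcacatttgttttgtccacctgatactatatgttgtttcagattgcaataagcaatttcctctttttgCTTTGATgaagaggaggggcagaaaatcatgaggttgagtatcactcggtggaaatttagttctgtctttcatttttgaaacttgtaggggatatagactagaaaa
Klra1: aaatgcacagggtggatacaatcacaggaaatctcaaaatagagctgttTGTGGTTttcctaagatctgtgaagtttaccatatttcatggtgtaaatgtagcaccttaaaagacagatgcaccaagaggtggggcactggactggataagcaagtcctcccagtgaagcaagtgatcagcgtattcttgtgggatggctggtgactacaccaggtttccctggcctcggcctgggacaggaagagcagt
*Klra6* held CTTTGAT, letters bound by TCF and LEF factors, in 1 of the 23 member windows, and 3.23% of 27025 promoter windows of this length held it on either strand. *Klra1* held TGTGGTT, the letters of a RUNX site, as did *Klre1* and *Klrk1*, and 4.46% of all windows did. The T-box letters TCACACC were in 0 member windows and 3.31% of all windows, and the STAT letters TTCNNNGAA were in 3 and 7.18%. No member window held more than 1 of these matches, so none overlapped. These are matches of letters in short windows and do not show binding.

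Across the annotated types, NK cells had the highest level of 15 members and NKT cells of 5. Levels are in CPM, the UMIs of a gene scaled to the same total in every cell, as the mean over the cells of a type in a heart and then averaged over the 6 hearts with equal weight. The assay tags 1 end of each transcript, so a transcript counts once whatever its length. Together NK and NKT cells held 72.6% of the 20816 unique molecular identifiers (UMIs, 1 per captured transcript) counted for the family. The summed level reached 3317 ± 421 CPM (SD, n = 6 hearts) among NK and 2705 ± 287 CPM among NKT cells. It was 1238 ± 205 CPM in Tcm cells, 734 ± 228 CPM in Trm-like cells and 261 ± 52.7 CPM in Tem/eff cells. In B cells, which should lack the family, it was 112 ± 46.1 CPM. Whether free RNA in the droplets or doublets gave this level was not tested. The types were annotated from clusters of these same cells, so differences between types are described without a test.

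The labels were read against markers first, since the receptors are themselves markers. *Ncr1*, an NK receptor, averaged 44.4 CPM in NK and 31.5 CPM in NKT cells, against 3.4 CPM in Tcm cells. *Eomes*, a transcription factor of NK cells, was at 1013 and 649 CPM in the same order. A UMI of *Cd3d*, *Cd3e*, *Cd3g* or *Trac* was found in 158 of 931 NK cells (median depth 2712 UMIs) and 159 of 347 NKT cells (median depth 5741). After each cell was thinned to 1500 UMIs the shares were 11.2% and 27.1%, beside 91.1% of Tem/eff cells and 5.59% of B cells. *Zbtb16*, which marks invariant NKT cells, was at 10.7 CPM in NKT and 10.6 CPM in NK cells. The proliferation markers *Top2a* and *Stmn1* were at 105 and 224 CPM in NKT cells, against 29.7 and 137 CPM in NK cells. They were highest in Tem/eff cells, at 214 and 272 CPM. The cells annotated NKT therefore held these NK transcripts below the levels of NK cells and T cell transcripts below those of the T cell types. They also held more of these proliferation transcripts than NK cells, and they are called NKT only as their annotation does. *Klra8* averaged 236 CPM in NKT cells with a CD3 or *Trac* UMI and 393 CPM in those without, and *Klrk1* 189.7 and 160.3 CPM.

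**Figure D1:**
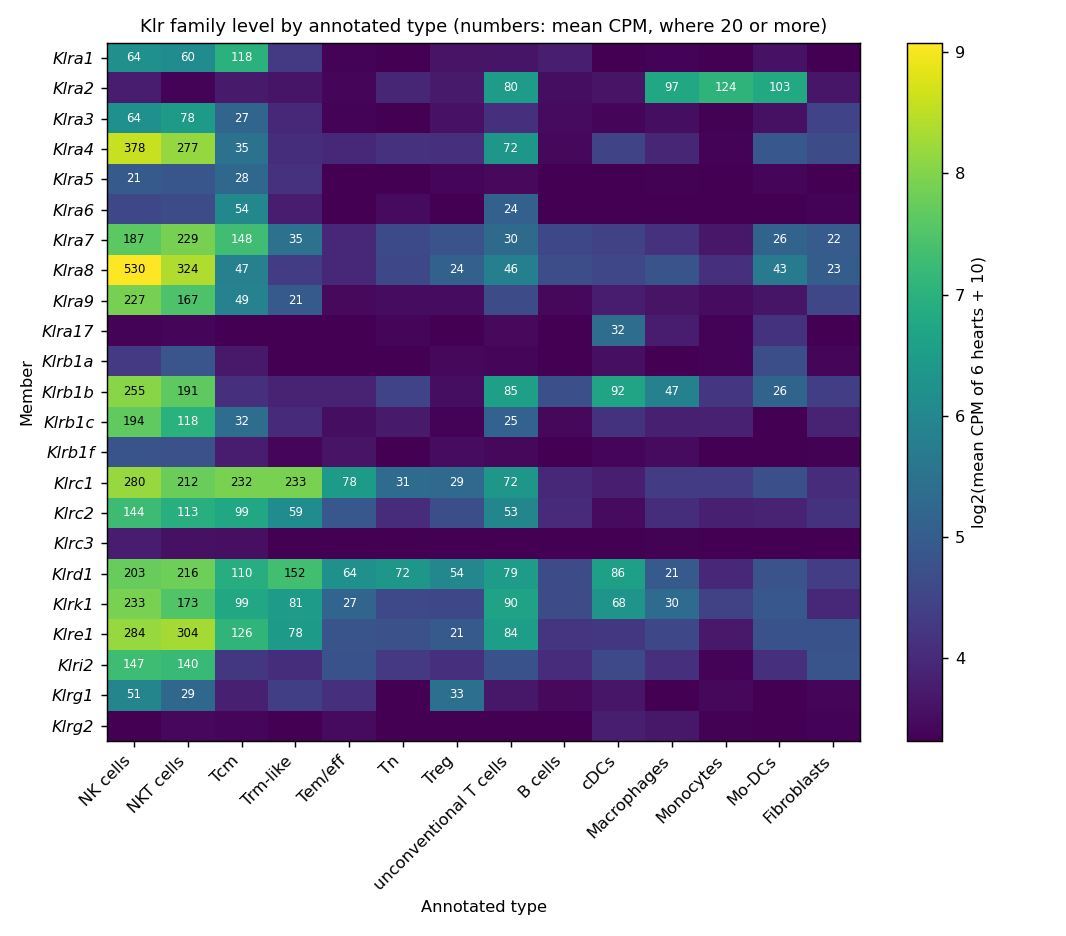
Mean level of each member with at least 20 UMIs (rows) in the 14 annotated types (columns), coloured by log2(mean CPM of 6 hearts + 10), with the mean CPM written where it is 20 or more. NK and NKT cells hold most of the family, *Klra1* and *Klra6* peak in Tcm cells, *Klra2* in monocytes, and *Klrc1* stays above 200 CPM in NK, NKT, Tcm and Trm-like cells.

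Of the Ly49 receptors, *Klra8* and *Klra4* were the most abundant. *Klra8*, whose product recognises a cytomegalovirus protein, measured 588, 557 and 596 CPM in NK cells of IL-33+ replicates 1, 2 and 3 and 601, 412 and 429 CPM in IL-33- replicates 4, 5 and 6. It was higher in NK than in NKT cells in 6 of 6 hearts, with means of 530 and 324 CPM. *Klra4* averaged 378 ± 98.0 CPM in NK and 277 ± 135 CPM in NKT cells, the NK level being above in 5 of 6 hearts. *Klra9* (Ly49I, inhibitory) was at 227 and 167 CPM. By heart, NK cells held *Klra9* at 284, 148 and 294 CPM in IL-33+ and 231, 128 and 276 CPM in IL-33- hearts, so replicates 2 and 5, the smallest samples, were the lowest. *Klra7* (Ly49G, inhibitory) went the other way, with 187 CPM in NK and 229 CPM in NKT cells. It was higher in the latter in 5 of 6 hearts. The NK levels of *Klra7* were 179.5, 222 and 230.4 CPM in IL-33+ and 122, 148 and 221 CPM in IL-33- hearts, with overlap. *Klra3* (Ly49C, inhibitory) was at 63.5 and 77.5 CPM, which did not differ beyond the spread of hearts. Ly49 genes are close copies, and how reads shared by copies were counted can move UMIs between them.

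With cells thinned to 1500 UMIs, *Klra8* was seen in 35.1% of NK cells (exact 95% binomial interval 32.1 to 38.3%), 23.1% of NKT cells, 4.14% of Tcm cells and 2.45% of B cells. These shares pool the cells of all hearts, and 475 of the 931 NK cells came from IL-33+ replicate 3. The intervals cover counting error only and not the spread of hearts. For *Klra8* in NK cells the mean over hearts, given in the closing section, lay below its interval. At least 1 Ly49 gene was seen in 72.9% of NK cells (70.0 to 75.8%), 63.4% of NKT cells, 35.7% of Tcm cells, 9.12% of Trm-like cells and 5.59% of B cells. *Klra2* and *Klra17* were left out of these Ly49 counts and of the Ly49 sums, since they were myeloid. Among NK cells 34.7% had UMIs of 1 Ly49 gene, 24.8% of 2, 10.4% of 3 and 3.01% of 4 or more. In Tcm cells these shares were 24.4%, 9.40%, 1.88% and 0 of 266 cells. The number of receptors per cell is a lower limit at this depth.

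Cells annotated Tcm carried a different set of Ly49 transcripts. *Klra1* (Ly49A, inhibitory) was at 91.4, 271 and 69.9 CPM in Tcm cells of IL-33+ hearts and at 117, 62.4 and 94.1 CPM in those of IL-33- hearts. Its mean of 118 CPM was above the 63.8 CPM of NK cells in 5 of 6 hearts. *Klra6* (Ly49F, inhibitory) averaged 54.5 CPM in Tcm and 13.6 CPM in NK cells, and was higher in Tcm cells in 6 of 6 hearts. *Klra8* and *Klra4* averaged only 46.7 and 34.8 CPM in Tcm cells, below NK cells in 6 of 6 hearts each. The activating pair *Klra4* and *Klra8* made up 61.2% ± 3.40 (SD, n = 6) of the summed Ly49 level in NK cells, 50.2% ± 6.96 in NKT cells and 14.1% ± 7.78 in Tcm cells. Their share in Tcm cells, 5.92% to 24.2% by heart, did not overlap that in NK cells, 56.0% to 65.1%. *Klra1*, *Klra5*, *Klra6* and *Klra7* together made up 68.4% ± 9.01 in Tcm cells and 19.3% ± 4.70 in NK cells. They were grouped with earlier results known and are not all of the inhibitory genes. *Klra9* was higher in NK than in Tcm cells in 6 of 6 hearts (227 and 49.05 CPM), and *Klra3* in 5 of 6 (63.5 and 26.7 CPM). Within the set, *Klra7* was also above in NK cells in 4 of 6 hearts (187 and 148 CPM). The Tcm shares rest on 523 Ly49 UMIs, against 4084 in NK cells.

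**Figure D2:**
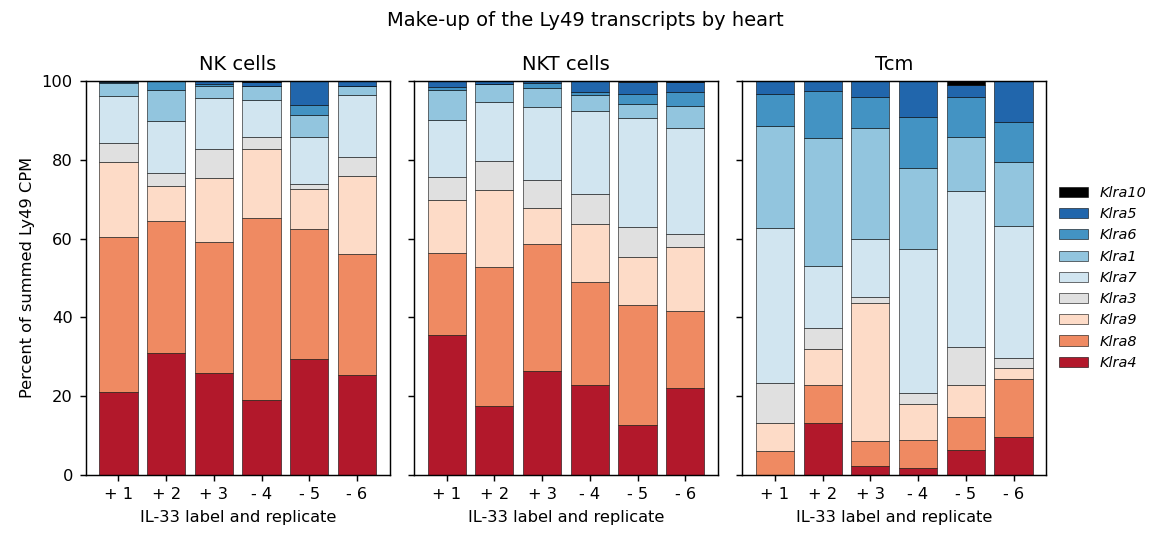
Share of each Ly49 gene in the summed Ly49 CPM (percent, stacked bars) for each heart, labelled by IL-33 status and replicate, in NK, NKT and Tcm cells. *Klra4* and *Klra8*, at the base of the bars, hold 56.0% to 65.1% in NK cells and 5.92% to 24.2% in Tcm cells.

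Other receptors of NK cells differed in how low they were in Tcm cells. *Klrb1b* averaged 7.28 CPM there against 255 CPM in NK cells, and *Klrg1* 4.09 CPM against 51.3 CPM. *Klrc1* (NKG2A) was at 232 CPM against 280 CPM, with NK cells above in 4 of 6 hearts, so it did not separate both types beyond the spread. *Klrc2* was likewise at 99.1 CPM against 144 CPM, with NK cells above in 4 of 6 hearts. *Klre1* (125.5 CPM), *Klrd1* (110.5 CPM) and *Klrk1* (98.7 CPM) were intermediate, below NK cells in 6 of 6 hearts each. A *Cd8a* or *Cd8b1* UMI alone was found in 71 of the 266 Tcm cells and a *Cd4* UMI alone in 6. *Ikzf2* (Helios) was at 892 CPM in Tcm cells, against 130 CPM in NK cells and 703 CPM in Tregs. *Il2rb* (CD122) was at 1755 CPM, below the 2726 CPM of NK cells. *Trdc*, of the gamma delta T cell receptor, was at 112 CPM, the highest among the T cell types. The other listed genes of this receptor were mixed. *Tcrg-C2* was at 19.1 CPM in Tcm and 18.8 CPM in Tn. *Tcrg-C1* was at 11.7 CPM in Tcm and 28.0 CPM in Trm-like cells, and *Trdv4* at 1.96 and 13.6 CPM.

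*Klrb1c*, which encodes NK1.1, averaged 194 ± 65.3 CPM (SD, n = 6) for NK, 118 ± 37.6 CPM for NKT cells and 31.7 ± 10.2 CPM in Tcm cells. *Klrb1b*, an inhibitory receptor for the protein of *Clec2d*, reached 255 CPM in NK and 191 CPM in NKT cells. It was also found outside lymphocytes, at 92.2 CPM in cDCs and 47.3 CPM in macrophages, where *Klrb1c* was at 8.02 and 4.13 CPM. In NK cells the level of *Klrb1b* was nearer to that of *Klrb1c*, at 255 and 194 CPM. In the NK cells of each heart *Klrb1b* was at 295, 185 and 335 CPM in IL-33+ and 199.6, 250.1 and 262 CPM in IL-33- hearts, and replicate 2 was the lowest. *Klrb1f* and *Klrb1a* stayed under 20 CPM in each type, and *Klrb1* was read from 10 UMIs in all.

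*Klrd1*, which encodes CD94, reached 20 CPM in 10 of the 14 types, more than any other member, and *Klrc1* in 8, as did *Klrk1*. *Klrc2* did so in 5 and *Klrc3* in 0. *Klrc1*, the inhibitory partner of CD94 that binds Qa-1 (*H2-T23*), was at 280 ± 65.6 CPM in NK cells, 233 ± 99.1 CPM in Trm-like cells, 232 ± 77.4 CPM in Tcm cells and 212 ± 71.8 CPM in NKT cells. The spread between hearts was wider than the steps between these 4 types, although NK cells were above NKT cells in 5 of 6 hearts. Its Trm-like levels were 252, 37.8 and 299 CPM in IL-33+ replicates 1, 2 and 3 and 233, 295 and 283 CPM in IL-33- replicates 4, 5 and 6. Replicate 2, which held 20 Trm-like cells, was low and the rest lay close together. *Klrc2* (NKG2C, activating) followed at 144, 59.2, 99.1 and 113 CPM in the same order of types. *Klrd1* (CD94) was at 216 CPM in NKT, 203 CPM in NK, 152 CPM in Trm-like and 110.5 CPM in Tcm cells, and still reached 86.5 CPM in cDCs, 72.1 CPM in Tn and 64.2 CPM in Tem/eff cells. For *Klrc1* the NK values were 219, 319 and 221 CPM in IL-33+ and 289, 387 and 246 CPM in IL-33- hearts, highest in replicate 5 and overlapping. For *Klrc2* they were 131, 118 and 171 CPM in IL-33+ and 213, 102 and 131 CPM in IL-33- hearts, and for *Klrd1* 239.9, 214 and 233 CPM in IL-33+ and 222, 149 and 161 CPM in IL-33- hearts. Both genes had their lowest value in replicate 5, and the groups overlapped. *Klrc3* had 23 UMIs in all.

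*Klrk1*, the NKG2D receptor for stress ligands, was at 233 ± 52.4 CPM in NK cells, 173 ± 40.6 CPM in NKT, 98.7 ± 45.2 CPM in Tcm and 80.8 ± 36.7 CPM in Trm-like cells. It was at 89.7 CPM in unconventional T cells, of which every cell also held UMIs of at least 2 markers of another lineage. *Klre1*, whose product pairs with the KLRI proteins, was at 303.5 ± 57.5 CPM in NKT and 284 ± 70.4 CPM in NK cells, higher in NK cells in 3 of 6 hearts. *Klri2*, whose product lacks the inhibitory motif of its relative KLRI1, was found mainly in both of these types, with 147 and 140 CPM in NK and NKT cells and at most 18.3 CPM in the other types. The NK levels of *Klrk1* were 204, 331 and 218 CPM in IL-33+ and 246, 219.7 and 180.4 CPM in IL-33- hearts. Those of *Klre1* were 308, 269 and 392 CPM in IL-33+ and 300.5, 179 and 252 CPM in IL-33- hearts, and those of *Klri2* 144, 148 and 204 CPM in IL-33+ and 183, 40.2 and 163 CPM in IL-33- hearts. The groups overlapped for all 3 genes, and *Klri2* was far lower in replicate 5 than elsewhere. *Klri1* and *Klra10* were read from 9 and 5 UMIs.

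A few members had their highest level outside NK and T cells. *Klra2* (Ly49B) was at 124 ± 49.8 CPM in monocytes, 103 ± 49.6 CPM in Mo-DCs and 97.0 ± 44.4 CPM in macrophages, and at 3.57 CPM in NK cells. In monocytes it was at 101, 224 and 102 CPM in IL-33+ and 103, 119.8 and 93.3 CPM in IL-33- hearts, with replicate 2 far above the others. With cells thinned to 1500 UMIs it was seen in 13.6% of monocytes and 0.322% of NK cells. *Klra17* (Ly49Q) reached 31.5 ± 27.6 CPM in cDCs and *Klrg2* was at most at 4.07 CPM. *Klrd1* was found in 28 of 63 cDCs with a *Cd209a* but no *Xcr1* UMI (144 CPM) and in 2 of 14 with an *Xcr1* but no *Cd209a* UMI (28.4 CPM), although the latter were deeper (10166 against 6359 UMIs). *Klrk1* was at 97.7 and 99.3 CPM in the same cDCs. These splits were chosen after the values were seen.

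*Klrg1*, an inhibitory receptor for cadherins, averaged 51.3 ± 19.1 CPM in NK cells, 33.1 ± 21.5 CPM in Tregs and 28.8 ± 21.8 CPM in NKT cells. Among Tregs, a *Klrg1* UMI was found in 10 of 43 cells with at least 2 markers listed for group 2 innate lymphoid cells (ILC2). It was found in 5 of 38 other cells with a *Foxp3* UMI and in 2 of 182 remaining cells. The markers were *Il5*, *Calca*, *Hs3st1*, *Gata3*, *Il17rb*, *Ptgir* and *Il1rl1*, and the 43 cells were taken with or without a *Foxp3* UMI. The paper reports *Il1rl1* in graft Tregs, so this subset may hold Tregs as well as ILC2. Median depths of these cells ran from 2704.5 to 3156 UMIs, and these subsets too were chosen after the values were seen. *Klrg1* was higher in NK than in NKT cells in 6 of 6 hearts.

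Tem/eff cells held few receptors as a whole but were uneven within. Cells with a UMI of *Cd8a* or *Cd8b1* and none of *Cd4* were compared with cells in the opposite case, heart by heart. The former numbered 55, with 2 and 4 in replicates 2 and 5, and the latter 203. *Klrc1* was at 162, 208, 98.5, 215, 289 and 334 CPM in the *Cd8* cells of replicates 1 to 6 and at 9.23, 80.7, 27.2, 39.1, 105 and 67.3 CPM in the *Cd4* cells. It was higher in the *Cd8* cells in 6 of 6 hearts, by 1.95 ± 0.71 (SD) on the scale of log2(CPM + 10). *Klrd1* averaged 212 and 35.6 CPM, higher in 6 of 6 hearts, and *Klrk1* 106 and 7.75 CPM, higher in 5 of 6. For *Klrc1* and *Klrd1* the two-sided exact permutation test gave p = 0.03125, the smallest that 6 hearts allow, and 0.281 after Benjamini-Hochberg adjustment over 18 such comparisons. For *Klrk1* p was 0.0625, and 0.281 after adjustment. *Klra8* averaged 0.99 CPM in the *Cd8* and 8.66 CPM in the *Cd4* cells, from 1 and 13 UMIs (exact permutation p = 0.0625, adjusted 0.281). Both levels were below its 15.5 CPM in B cells. In Trm-like cells *Klrc1* was at 261 and 131 CPM, higher in 4 of 6 hearts (exact permutation p = 0.219, adjusted 0.450).

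**Figure D3:**
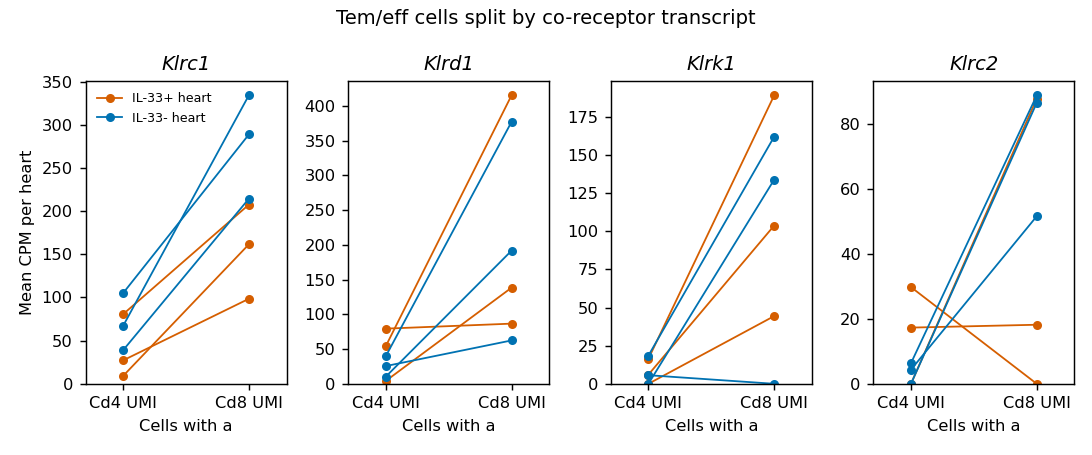
Mean CPM of *Klrc1*, *Klrd1*, *Klrk1* and *Klrc2* per heart in Tem/eff cells with a *Cd4* UMI only and with a *Cd8a* or *Cd8b1* UMI only; each line joins the values of 1 heart. *Klrc1* and *Klrd1* rise from left to right in all 6 hearts, *Klrk1* and *Klrc2* in 5.

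The comparison of IL-33+ with IL-33- hearts asks whether IL-33 from the graft changed these receptors in the cells recovered from it. The transcript of *Il33* itself did not separate the groups. In fibroblasts it was at 24.3, 0 and 50.7 CPM in IL-33+ hearts and 32.6, 73.8 and 16.1 CPM in IL-33- hearts (limma, adjusted p = 0.998). The lowest and highest of these values rest on 6 fibroblasts (replicate 2) and 4 fibroblasts (replicate 5). Hearts are therefore grouped by their labels. Of the 26 members, 23 had enough UMIs to be tested in some type. Of 146 tests of a member in a type, 0 passed a Benjamini-Hochberg adjusted p of 0.05 (limma on log2 of mean CPM plus 10, hearts as replicates), and 19 had an unadjusted p of 0.05 or less. Over all genes and the 14 types 0.00884% of tests passed the first threshold and 4.71% the second. The fold changes below therefore describe these hearts and are not called.

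In NK cells 16 of 20 members tested were higher in IL-33+ hearts, beside 4892 of 9565 genes. The median log2 fold change of the members was 0.37, against 0.01 over all 9565 genes tested. By limma, 5 members had an unadjusted p of 0.05 or less, 4 of them higher, beside 5.82% of all genes. Without IL-33+ replicate 3, which held 475 of the 931 NK cells, 2 members did, beside 432 of 8185 genes. *Klrb1c* had the smallest p. Its level was 243, 219 and 283 CPM in IL-33+ hearts and at 114, 139 and 163 CPM in IL-33- hearts. Each IL-33+ heart was above each IL-33- heart, the only member of which this was true in NK cells, as for 5.83% of genes tested. The log2 fold change was 0.80 (standard error 0.19, limma adjusted p = 0.247). With limma-voom, run on UMIs recovered from the deposited values, it was 0.97 with an adjusted p of 0.0357, and 0.23% of genes were called. Over 14 alternatives the adjusted p ran from 0.0357 to 0.891 and the log2 fold change from 0.66 to 1.36.

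Among the Ly49 genes of NK cells, *Klra3* was at 72.7, 55.9 and 131 CPM in IL-33+ and 39.3, 14.8 and 67.7 CPM in IL-33- hearts, or 86.5 ± 39.2 and 40.6 ± 26.5 CPM (SD, n = 3), a log2 fold change of 1.01 (limma adjusted p = 0.779). *Klra4* was at 315, 517 and 462 CPM against 248, 368 and 355 CPM, overlapping by replicate 1 (log2 fold change 0.40, limma adjusted p = 0.846). *Klra5* (Ly49E, inhibitory) was lower in IL-33+ hearts, at 4.12, 0 and 11.5 CPM against 15.3, 75.9 and 18.8 CPM from 35 UMIs in all, and its groups did not overlap, as for 5.45% of genes in that direction. Its log2 fold change was -1.46 (limma adjusted p = 0.561). Without IL-33- replicate 5, whose 33 NK cells had the highest level, it was -0.90 for *Klra5*, and over 14 alternatives it ran from -2.87 to -0.59. *Klra3* likewise went to 0.57 without IL-33- replicate 5, where it was lowest. *Klre1* averaged 323 ± 63.0 and 244 ± 61.0 CPM (log2 fold change 0.40). *Klra8* (0.29), *Klrk1* (0.19) and *Klrc1* (-0.27) had overlapping groups.

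In NKT cells the differences lay in both directions. Of 19 members tested, 9 were higher in IL-33+ hearts, beside 4226 of 9296 genes. The median log2 fold change of the members was -0.07, against -0.04 over all genes. By limma, 8 had an unadjusted p of 0.05 or less, 5 of them higher and 3 lower, beside 4.88% of all genes. Of the 19, 4 were higher without overlap of the groups (4.09% of genes tested) and 3 were lower (5.97%). NKT cells numbered 50, 17 and 100 in IL-33+ and 69, 28 and 83 in IL-33- hearts. When only NKT cells with a CD3 or *Trac* UMI were used, 4 members had such a p, 3 of them higher, beside 332 of 7866 genes. Without cells holding markers of another lineage 3 members did, beside 275 of 6967 genes, and 0 of these members were higher. None of the members described next as higher therefore reached it there. In that setting 13 of 19 members had a log2 fold change above 0, as did 3327 of 6967 genes. Cells were left out for UMIs of at least 2 listed markers of another lineage, which deeper cells reach more easily. The myeloid list held *Ly6c2*, also listed for NK maturation, and *Zbtb46*, at 37.5 CPM in NK and 25.15 CPM in NKT cells. The rule removed 63.7% of NKT and 49.3% of NK cells, so it may also have removed cells of the annotated types proper.

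*Klra4* was at 493, 248 and 364 CPM in NKT cells of IL-33+ hearts and at 247, 102 and 207 CPM in those of IL-33- hearts. The groups did not overlap, though replicates 2 and 4 were almost level, and the log2 fold change was 0.98 (standard error 0.25, limma adjusted p = 0.851, and 0.62 without IL-33- replicate 5). *Klra8* was at 292, 502 and 441 CPM against 286, 244 and 182 CPM, again without overlap and with replicates 1 and 4 close (log2 fold change 0.76, standard error 0.20, limma adjusted p = 0.851, and 0.36 without cells holding markers of another lineage). Summed, the activating pair was at 784, 749 and 805 CPM in IL-33+ and at 534, 346 and 389 CPM in IL-33- hearts. In NK cells the same sum was at 903, 1074 and 1058 CPM against 849, 780.2 and 785 CPM. Both sums lay higher in each IL-33+ heart than in each IL-33- heart. So did the Ly49 sum and the sum of the whole family in both types, so this was not particular to the pair. In NK cells the pair made up 61.3% of the Ly49 sum in IL-33+ and 61.2% in IL-33- hearts. In NKT cells these shares were 55.9% and 44.5%. No test was run on the sums because the pair was chosen with its values known, and no share over all genes was computed for sums.

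*Klri2* and *Klra1* were also higher without overlap in NKT cells. *Klri2* was at 129, 223 and 172 CPM in IL-33+ and 126, 87.2 and 104 CPM in IL-33- hearts (log2 fold change 0.66), replicates 1 and 4 being close. *Klra1* was at 105, 65.8 and 65.3 CPM in IL-33+ and 43.2, 29.4 and 51.9 CPM in IL-33- hearts (0.78). *Klra3* was at 83.8, 105 and 99.6 CPM in IL-33+ and 84.4, 60.7 and 31.9 CPM in IL-33- hearts (0.69, and 0.37 without IL-33- replicate 6), overlapping by replicates 1 and 4. *Klrc1* was lower, at 182, 101 and 183 CPM in IL-33+ hearts and at 242, 258 and 305.7 CPM in IL-33- hearts. Each IL-33+ heart was below each IL-33- heart, and the log2 fold change was -0.79 (standard error 0.22, limma adjusted p = 0.851, and -0.52 without IL-33+ replicate 2). *Klra5*, at 18.2, 8.33 and 5.12 CPM in IL-33+ and 31.3, 26.4 and 25.9 CPM in IL-33- hearts (-0.93), and *Klrb1a* (-0.46) were lower without overlap at means under 30 CPM in either group. *Klrb1b* was at 99.8, 139 and 218 CPM in IL-33+ and 147, 282 and 262 CPM in IL-33- hearts, with overlap (-0.58, and -0.33 without IL-33+ replicate 1). *Klrd1*, the partner of *Klrc1*, was level at 209 ± 15.1 and 223 ± 47.6 CPM (-0.07), as was *Klra7* (-0.07).

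**Figure D4:**
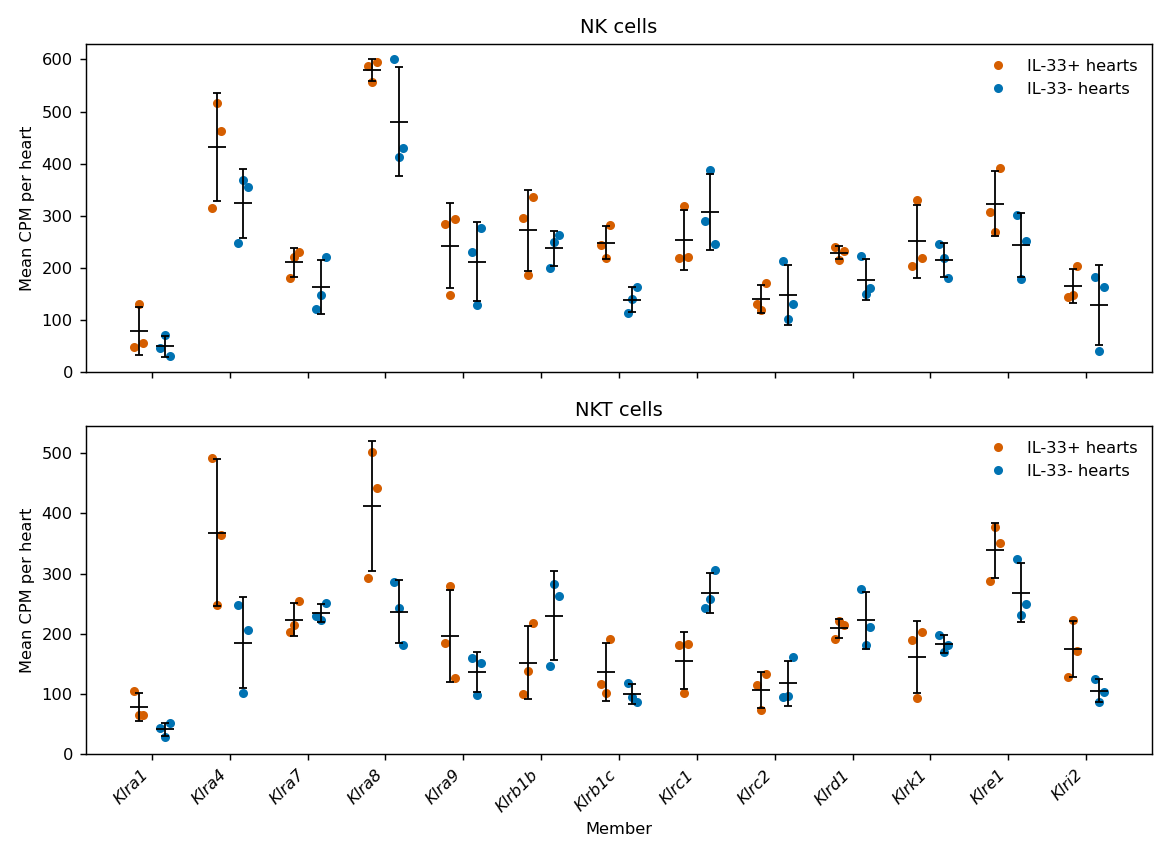
Mean CPM per heart of the members that reach 100 CPM in a lymphoid type, in NK cells (top) and NKT cells (bottom); points are hearts, bars the group mean and SD (n = 3). *Klrb1c* in NK cells and *Klra1*, *Klra4*, *Klra8*, *Klri2* and *Klrc1* in NKT cells are the ones plotted whose groups do not overlap.

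Whether the contrast differed between both types was tested within hearts, as the difference of the NK and NKT levels. Of 19 members, 0 passed an adjusted p of 0.05 in limma and 2 had an unadjusted p of 0.05 or less, where 4.38% of all genes did. These were *Klrb1b*, whose contrast was 0.74 higher in NK cells (standard error 0.29, limma adjusted p = 0.936), and *Klra8*, whose contrast was 0.47 lower (-0.47, standard error 0.22, limma adjusted p = 0.936). For *Klrb1c* the difference was 0.44 (standard error 0.30) and for *Klrc1* 0.52 (standard error 0.32), so the contrasts of both types are not shown to differ.

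**Figure D5:**
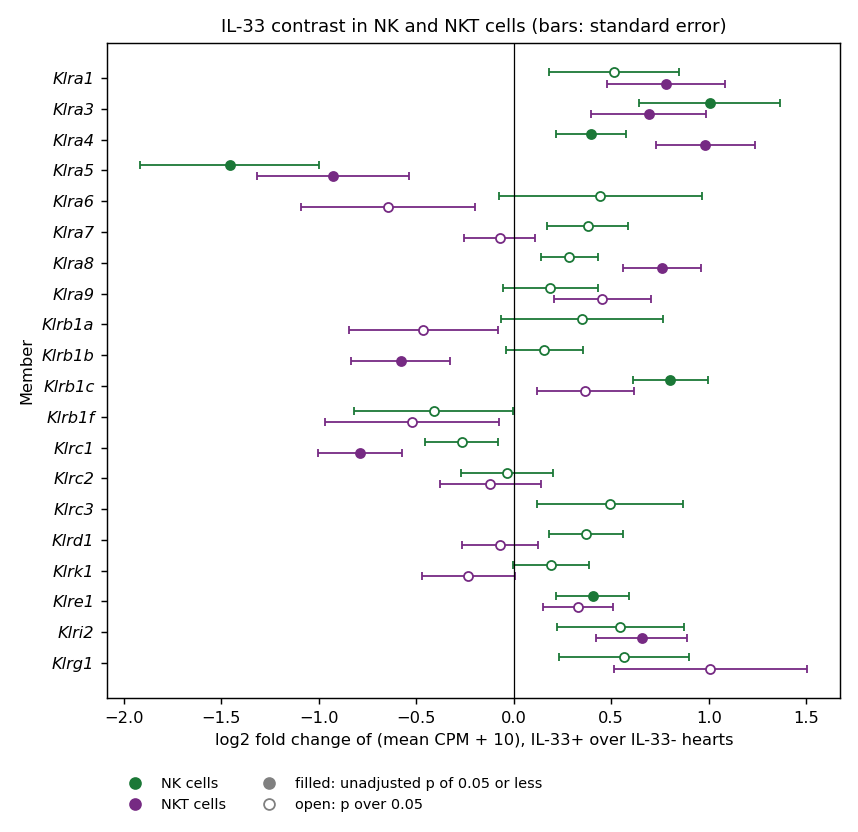
Log2 fold change of (mean CPM + 10), IL-33+ over IL-33- hearts, for the members tested in NK cells and NKT cells, with standard errors from limma; filled points have an unadjusted p of 0.05 or less. In NK cells 16 of 20 lie right of 0 (4892 of 9565 genes) and in NKT cells 9 of 19 (4226 of 9296 genes).

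In the other types the contrast rested on fewer UMIs. In Tcm cells 6 of 15 members were higher, beside 3672 of 7767 genes. An unadjusted limma p of 0.05 or less was had by 2 members and by 4.87% of all genes. *Klra7* was at 139, 132 and 36.7 CPM in IL-33+ hearts and at 208, 182 and 192 CPM in IL-33- hearts, lower without overlap (5.05% of genes), with a log2 fold change of -1.03 (limma adjusted p = 0.951). Without IL-33+ replicate 3, its lowest heart, the log2 fold change of *Klra7* was -0.48, and without cells holding markers of another lineage it was -0.31. *Klra5* was at 11.6, 20.49 and 10.1 CPM in IL-33+ and 52.3, 14 and 60 CPM in IL-33- hearts, with overlap, averaging 14.0 ± 5.64 and 42.1 ± 24.6 CPM (limma adjusted p = 0.951). The 19 Tcm cells of IL-33+ replicate 2 had the highest *Klra1*. Without that replicate, 6 members of Tcm cells and 455 of 7612 genes reached an unadjusted p of 0.05 or less. Only 1 member reached it without IL-33- replicate 4 (250 of 7182 genes) or 6 (220 of 7384 genes). In Tem/eff cells 1 of 10 members reached it (4.41% of genes): *Klrc1* was at 65.3, 77.7 and 31.6 CPM in IL-33+ and 72.9, 102 and 115 CPM in IL-33- hearts (log2 fold change -0.70, limma adjusted p = 0.998, and -0.37 without IL-33+ replicate 3). In Tregs it was 1 of 8 (5.1% of genes), *Klra8*, at 74.1, 30.9 and 21.3 CPM in IL-33+ and 11.9, 0 and 7.82 CPM in IL-33- hearts from 15 UMIs, higher without overlap (4.04%). In Trm-like cells, which held *Klrc1* at 233 CPM, it was 0 of 10 (5.05% of genes). In macrophages *Klrc1*, at 5.35, 0 and 3.49 CPM in IL-33+ and 3.23, 25.8 and 24.1 CPM in IL-33- hearts from 15 UMIs, was the 1 of 12 (4.04%), and in fibroblasts *Klra7* the 1 of 13 (3.16%). It was also 0 of 10 in cDCs (6.79%), 0 of 13 in unconventional T cells (4.54%), 0 of 6 in Mo-DCs (3.49%), 0 of 4 in B cells (4.19%), 0 of 3 in Tn (4.92%) and 0 of 3 in monocytes, again beside 4.87%. Adjusted p-values of 0.05 or less, reached by 0 members, were reached by 0.0187% of genes in fibroblasts, 0.0702% in Mo-DCs, 0.014% in monocytes, 0.0128% in Trm-like and 0.0272% in unconventional T cells, and by 0 genes elsewhere. Without overlap, 0 members were higher or lower in macrophages (3.82% and 5.15% of genes), Tem/eff (4.24% and 4.99%), Tn (4.38% and 5.44%) and Trm-like cells (4.82% and 5.53%), and 0 were higher in Tcm cells (5.25%) or lower in Tregs (5.98%).

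The adaptors and proximal signalling genes were read as a list of 14. *Hcst*, the NKG2D adaptor, was at 400 ± 68.0 CPM in NK and 371 ± 109 CPM in Tcm cells, and was highest in Trm-like cells at 443 CPM. *Tyrobp*, the adaptor of Ly49D and Ly49H, separated them, with 702 ± 80.1 CPM in NK cells and 95.9 ± 34.8 CPM in Tcm cells, and was highest in monocytes at 1277 CPM. *Fcer1g* was at 952 and 208 CPM. In the IL-33 contrast 13 of the 14 were tested in NK cells and 13 in NKT cells. In each type 0 were called and 1 had an unadjusted limma p of 0.05 or less, beside 5.82% of genes in NK and 4.88% in NKT cells. These were *Sh2d1a* in NK cells (log2 fold change 0.97, limma adjusted p = 0.846) and *Ptpn11* in NKT cells (0.94, limma adjusted p = 0.924). The median log2 fold change of the list was 0.11 in both, against 0.01 and -0.04 over all genes.

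Of 22 ligands listed, 17 were symbols of the table. The MHC class I genes *H2-K1* and *H2-D1*, which many Ly49 receptors bind, were at 5584 ± 577 and 1821 ± 92.5 CPM in NK cells and at 1676 and 1427 CPM in monocytes. *H2-T23* (Qa-1), the ligand of NKG2A, was highest of the 14 types in cDCs, at 404 ± 53.3 CPM. *Cdh1*, a ligand of KLRG1, reached 109 ± 110 CPM in cDCs. In the IL-33 contrast 0 ligands were called by limma in any of the 14 types. An unadjusted p of 0.05 or less was had by 1 ligand higher and 1 lower of 8 tested in NK cells (5.82% of genes). In Tem/eff cells it was likewise 1 and 1 of 8 (4.41%), and in cDCs 1 and 1 of 6 (6.79%). It was 2 of 7 in Trm-like cells (5.05%), 1 of 7 in macrophages (4.04%) and 1 of 7 in Mo-DCs (3.49%). It was 1 of 6 in monocytes (4.87%), 1 of 5 in Tn (4.92%), 1 of 4 in Tregs (5.1%) and 0 in the other types. *H2-K1* had such a p in NK cells (log2 fold change -0.23), Trm-like cells (-0.27), cDCs (-0.43) and Tregs (-0.35), lower in IL-33+ hearts each time. *Cdh1* had it in macrophages (1.53), Mo-DCs (3.37) and cDCs (1.504), where it was higher, and in Trm-like cells (-1.47), where it was lower. *Clec2d*, the ligand of the *Klrb1b* product, had it in NK cells (0.82), monocytes (-1.72) and Tn (-1.89). In Tem/eff cells it was *H2-Q10* (0.82) and *Ulbp1* (-0.80). The limma adjusted p of all these was 0.512 or more. Some of these types had few cells in a heart, the fewest being 4 Mo-DCs, 5 monocytes and 6 cDCs.

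The genes most alike to the summed family were found over 72 pairs of heart and type with at least 10 cells, among 3466 other genes with at least 50 CPM in NK cells. Pearson's r was highest for *Car2* (0.901), *Eomes* (0.878), *Chsy1* (0.853), *Prf1* (0.850), *Qrfp* (0.848), *Gzma* (0.843), *Serpinb9* (0.840), *Ccl5* (0.832), *Sult2b1* (0.830) and *Ctla2b* (0.825). *Prf1* and *Gzma* encode the cytotoxic proteins perforin and granzyme A. Without NK and NKT cells r was 0.556 to 0.738 for these 10 over 60 pairs. Pairs of the same heart share 1 library and its free RNA, so these values are a description.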

How the data were processed

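Single-cell RNA-seq was measured in 6 hearts. The authors aligned reads to mm10 with Cell Ranger, filtered cells in Partek (10.0.23.0425 per the labels; 1500 to 15000 counts, 400 to 4000 genes, under 20% mitochondrial) and deposited log2(CPM + 1) for each gene and cell, with annotated type and hashtag; how hashtags were assigned is not given in the sources used here. The log was undone, and 99.941% of low values lay within 0.05 of whole UMIs. Depth was 908138 to 7012961 UMIs per heart, 1500 to 14977 per cell.

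For each heart and type the mean CPM of its cells was taken, and log2(mean CPM + 10) was compared with limma 3.58.1 (R 4.3.3; lmFit, eBayes with a trend) for genes with at least 10 UMIs and a UMI in 3 hearts, adjusted by Benjamini-Hochberg over all genes of a type. Hearts were the replicates. Simulated hearts with known changes were used to test the fit. Python 3.11.15 was used elsewhere. Shares were read after thinning to 1500 UMIs. No doublet caller was run. The members and lists were chosen with earlier results of these data known. Every member was described. A member was given heart by heart where it reached 100 CPM or an unadjusted p of 0.05 in a type with 10 or more cells per heart, and other genes were named from lists of adaptors, ligands and cell markers or as the 10 most alike. Subsets by co-receptor, dendritic cell or ILC2 marker UMIs were added after seeing the data. Alternatives changed the pseudocount, filter, summing, method, scaling, cells and hearts.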

Additional observations from a re-analysis of the deposited data

How the results depend on the processing

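No member was called under the alternatives except with limma-voom, which called 1 (*Klrb1c* in NK cells). With each heart left out in turn, the count of members called over all types was 0 each time. The number with an unadjusted p of 0.05 or less in NK cells was 5 (557 of 9565 genes). It was 3 with a pseudocount of 1 CPM (448 of 9565) and 3 with no low-count filter (583 of 14642). It was 3 without cells holding markers of another lineage (475 of 8118) and 9 with limma-voom (664 of 9565). With hearts left out it ran from 2 (432 of 8185 genes, without IL-33+ replicate 3) to 7. The count was 7 without IL-33- replicate 4 (654 of 9248) or 6 (692 of 9200). In NKT cells the number was 8 (454 of 9296 genes). It was 3 without cells holding markers of another lineage (275 of 6967) and 4 in cells with a CD3 or *Trac* UMI (332 of 7866). In Tcm cells the number was 2 (378 of 7767 genes). It was 1 with a pseudocount of 1 CPM (310 of 7767), no filter (602 of 12943) or summed UMIs (393 of 7767). It was also 1 without cells holding markers of another lineage (266 of 5833). With hearts left out it ran from 1 (220 of 7384 genes, without IL-33- replicate 6) to 6 (455 of 7612, without IL-33+ replicate 2). The difference of contrasts had 2 such members (391 of 8929 genes), and 1 with a pseudocount of 50 CPM (404 of 8929). Most of the 23 results followed on single members were chosen for an unadjusted p of 0.05 or less, and none was called in the main fit. Refits on the same hearts were thus likely to keep their direction and to stay uncalled, so the count that follows cannot show stability. For these 23 results, 299 alternative values kept direction and side of the threshold. Of the other two, *Klrb1c* in NK cells passed it with limma-voom (0.97), and *Klrb1c* in NKT cells reversed to -0.33 without cells holding markers of another lineage, which removed 63.7% of NKT cells. The cause was not tested. Without thinning, the shares of NK cells with a UMI averaged over hearts rose from 26.7% to 33.3% (*Klra4*), 31.4% to 39.2% (*Klra8*), 21.4% to 32.4% (*Klrb1c*) and 26.1% to 39.3% (*Klrc1*), since more UMIs are read per cell. Unconventional T cells could not be fitted without hearts under 10 cells or without cells of mixed markers. No paired analysis was possible because the groups share no replicate number. Depth limits the members under 50 CPM, where a heart rests on a few UMIs, and Ly49 copies whose reads may be shared.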
